A study of Mus musculus with 18 samples.

Results

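The miR-17-92 cluster was followed through small RNA libraries of glial and neuronal fractions from the aged mouse brain. The members are 7 mature miRNAs of the Mir17hg locus, namely mmu-miR-17-5p, mmu-miR-17-3p, mmu-miR-18a-5p, mmu-miR-19a-3p, mmu-miR-20a-5p, mmu-miR-19b-3p and mmu-miR-92a-3p, written without the species prefix from here on. They were matched by name, and all 7 were among the 1054 mature miRNAs that had at least 1 count, out of 86922 features with a count. The names set no threshold, but the cluster was selected on its counts in the 6 groups, with the comparisons known, so the values and calls of the members in every comparison stand here as a description without p-values. The mice were wild type (WT) or homozygous for Atxn2-CAG100-KIN (KIN), a knock-in of an expanded CAG repeat into Atxn2 that models spinocerebellar ataxia type 2. Every mouse was 10 months old, on a C57BL/6 background, and per the study's methods KIN and WT animals were littermates of the same sex from heterozygous matings. Magnetic beads took microglia by CD11b and then astrocytes by ACSA-2 from each dissociated brain, and neurons were what passed the column after the other cells had been labelled and endothelial cells depleted by CD31. The 18 libraries form 6 groups of 3, the 3 fractions from either genotype. The study states that equal amounts of RNA went into cDNA preparation, without naming the small RNA libraries.

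The cluster is a polycistron: 1 primary transcript folds into several hairpins, which Drosha and Dgcr8 cut out in the nucleus, Xpo5 carries to the cytoplasm and Dicer1 trims to mature strands held by Argonaute proteins. It is known as a Myc-driven and E2f-driven cluster that favours proliferation and survival, and mice that lack it die around birth with underdeveloped lungs, a defect of the ventricular septum and a block in early B cell development. Its seed families differ in their best known targets, with Bcl2l11 assigned to the miR-92 and miR-17 strands and Cdkn1a to the miR-17 strands. In the nervous system it is known for the growth of neural progenitors and for axon outgrowth.

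On GRCm39 (mm39) the 6 hairpins lie on the plus strand of chromosome 14 between 115281103 and 115281938, a span of 836 bases. They lie in exon 2 of the 2 exons of the noncoding transcript Mir17hg-201, and the host gene Mir17hg runs from 115278211 to 115284162. In order along the strand, the annotation places Mir17 at chr14:115281103-115281186, Mir18 at chr14:115281283-115281378, Mir19a at chr14:115281432-115281513, Mir20a at chr14:115281589-115281695, Mir19b-1 at chr14:115281737-115281823 and Mir92-1 at chr14:115281859-115281938. Mir17 gives 2 members, 1 from each strand of the hairpin, and every other hairpin gives 1. The mature sequences below are from RefSeq (GRCm38.p6), all of them identical to the sequences in the deposited annotation. Each is written 5′ to 3′ with the seed, bases 2 to 8, in capitals, because the seed largely sets which messages a miRNA binds.
miR-17-5p: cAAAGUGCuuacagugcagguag
miR-20a-5p: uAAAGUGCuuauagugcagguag
miR-18a-5p: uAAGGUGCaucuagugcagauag
miR-19a-3p: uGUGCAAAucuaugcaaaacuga
miR-19b-3p: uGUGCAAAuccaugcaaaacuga
miR-92a-3p: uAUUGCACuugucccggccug
miR-17-3p: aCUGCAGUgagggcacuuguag

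The 7 members thus carry 5 seeds. Counting positions from 1 at the 5′ end, miR-19a-3p and miR-19b-3p differ by the single substitution U11C, and miR-17-5p and miR-20a-5p by C1U and C12U. Close relatives from 2 other clusters are shown, because a read of a member has to be told apart from them. The list is not complete, since miR-92b-3p lies outside these clusters. It shares the seed of miR-92a-3p, resembles it more closely than miR-25-3p does and had 13223 counts. miR-106b-5p, miR-93-5p and miR-25-3p belong to the Mir106b-25 cluster on chromosome 5. miR-106a-5p and miR-20b-5p belong to the Mir106a-363 cluster on chromosome X, and miR-106a-5p differs from miR-17-5p by U10A alone.
miR-106a-5p: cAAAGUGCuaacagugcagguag
miR-20b-5p: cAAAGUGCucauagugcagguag
miR-106b-5p: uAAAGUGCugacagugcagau
miR-93-5p: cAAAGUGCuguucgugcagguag
miR-25-3p: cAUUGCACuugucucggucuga

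The sequences of miR-19b-3p and miR-92a-3p occur in 2 hairpins each, Mir19b-1 with Mir19b-2 and Mir92-1 with Mir92-2, of which the second of each pair is on chromosome X. A mature read of these 2 members cannot be assigned to either locus. The other 5 members each occur in 1 hairpin of the 2 clusters.

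Library totals ran from 3144427 to 3980687 counts in the astrocyte libraries, from 3148211 to 4316748 in those of microglia and from 1211118 to 2427384 in those of neurons. Mature miRNAs took 5.05% to 10.3% of the counts in astrocytes, 5.09% to 8.45% in microglia and 0.964% to 2.13% in neurons. The share was higher in KIN astrocytes (9.30% ± 0.971, SD, n = 3) than in WT astrocytes (6.48% ± 1.66, SD, n = 3), without overlap. Levels are therefore given on 2 scales, as counts per 1000000 counts of the library (CPM) and as a share of the mature miRNA counts. The label of the microglia was borne out by miR-142a-3p, a miRNA of blood-derived and myeloid cells, at 2291 to 5085 CPM there against 7.00 to 39.6 CPM in astrocytes. The neuronal label was not borne out by miR-124-3p, the classic neuronal miRNA, which lay at 41.3 to 162 CPM in the neuronal fraction against 677 to 2538 CPM in astrocytes. The transcript Xist, made in female cells, lay at 1.27 to 2.13 CPM in the 3 libraries of KIN replicate 1 and at 7.59 to 36.3 CPM in the other 15, which does not match pairs of one sex. Counts on Y-linked genes did not follow that split, at 7 to 15 in those 3 libraries and 1 to 26 in the other 15. In CPM they were higher in WT replicates 1 and 3 and KIN replicate 1 of each fraction than in its other libraries. In that order they were 8.27, 5.46 and 2.04 in astrocytes, where WT replicate 2 had 2.01. In microglia they were 2.88, 4.91 and 3.18, against 0.288, 0.927 and 0.466 in WT replicate 2 and KIN replicates 2 and 3. Whether sex differed between the genotypes was not tested. Nothing in the labels says that the replicate number marks a brain.

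All 7 members were detected in every group. Their counts summed to 60826 over the 18 libraries, from 270 in neurons WT replicate 1 to 9335 in microglia KIN replicate 3. miR-19b-3p held 40.7% of that sum, miR-20a-5p 20.8%, miR-92a-3p 14.2%, miR-17-5p 13.6%, miR-19a-3p 5.79%, miR-18a-5p 2.54% and miR-17-3p 2.26%. A single value was 0, that of miR-17-3p in neurons WT replicate 1. Among mature miRNAs, miR-19b-3p ranked between 22 and 26 in microglia, between 9 and 23 in neurons and between 48 and 69 in astrocytes. miR-17-3p, the strand less often kept from its hairpin, ranked no better than 90 in any library. Position along the transcript did not order the levels, as the map of the hairpins shows, since levels rose from Mir19a over Mir20a to Mir19b-1 and were lower again at Mir92-1.

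**Figure D1:**
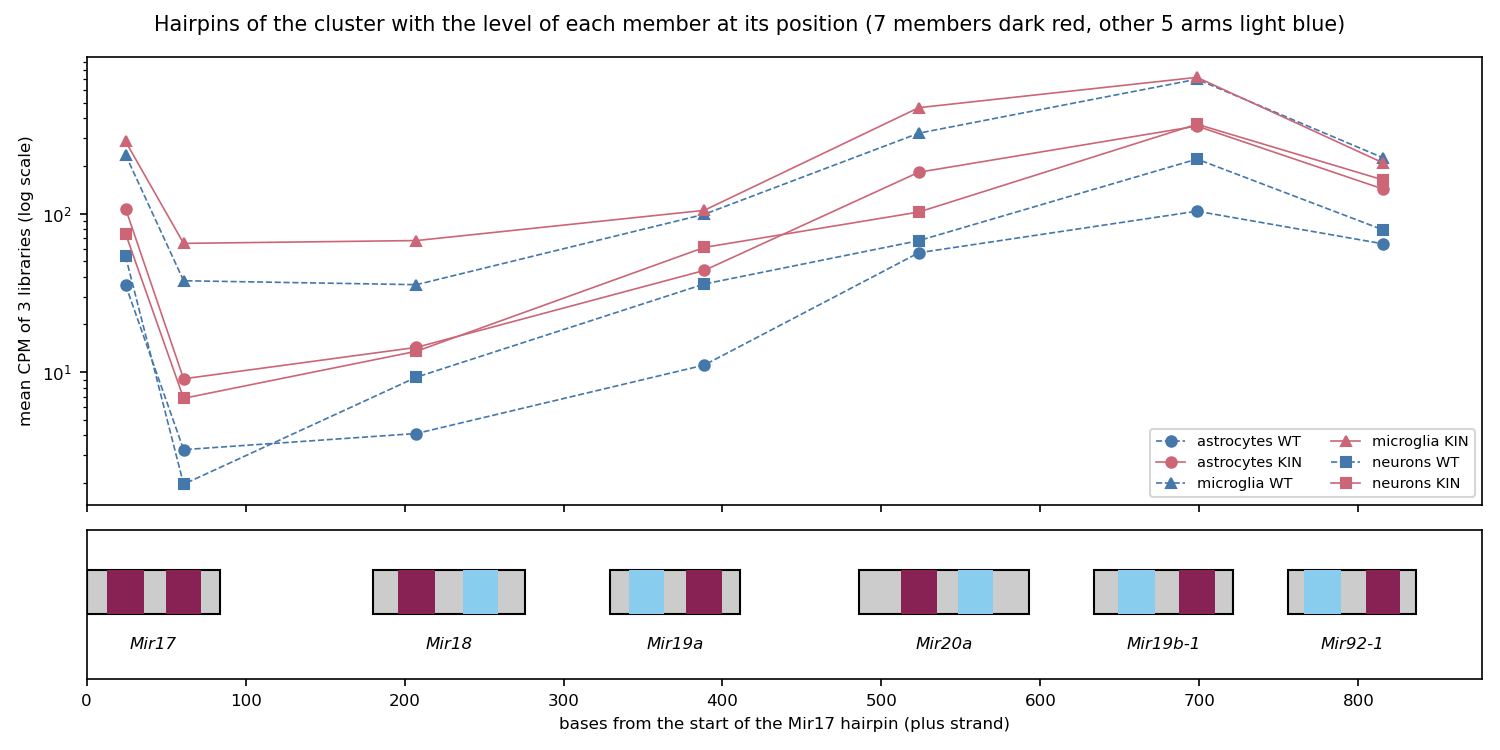
The lower strip draws the 6 hairpins to scale in bases from the start of Mir17, with the 7 members in dark red and the other 5 strands in light blue. Above each member stands its mean CPM of 3 libraries on a log axis for each of the 6 groups, and miR-19b-3p has the highest mean in all 6, with miR-17-3p or miR-18a-5p the lowest.

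By summed CPM the 6 groups ran in order from microglia KIN (1917 ± 401, SD, n = 3) over microglia WT (1654 ± 165), astrocytes KIN (855 ± 46.1), neurons KIN (787 ± 246) and neurons WT (468 ± 238) to astrocytes WT (278 ± 70.6). Only 1 pair of neighbours in that order did not overlap, microglia WT and astrocytes KIN. The share of all mature miRNA counts gave another order. Neurons KIN then came first at 4.18% to 5.02%, neurons WT followed at 2.31% to 4.46%, microglia WT at 2.95% to 3.14%, microglia KIN at 2.48% to 2.60%, astrocytes KIN at 0.877% to 0.974% and astrocytes WT at 0.424% to 0.439%. On that scale the 2 neuronal groups overlapped each other, neurons WT overlapped microglia WT, and the other neighbours did not overlap. Astrocytes WT were lowest on both scales.

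**Figure D2:**
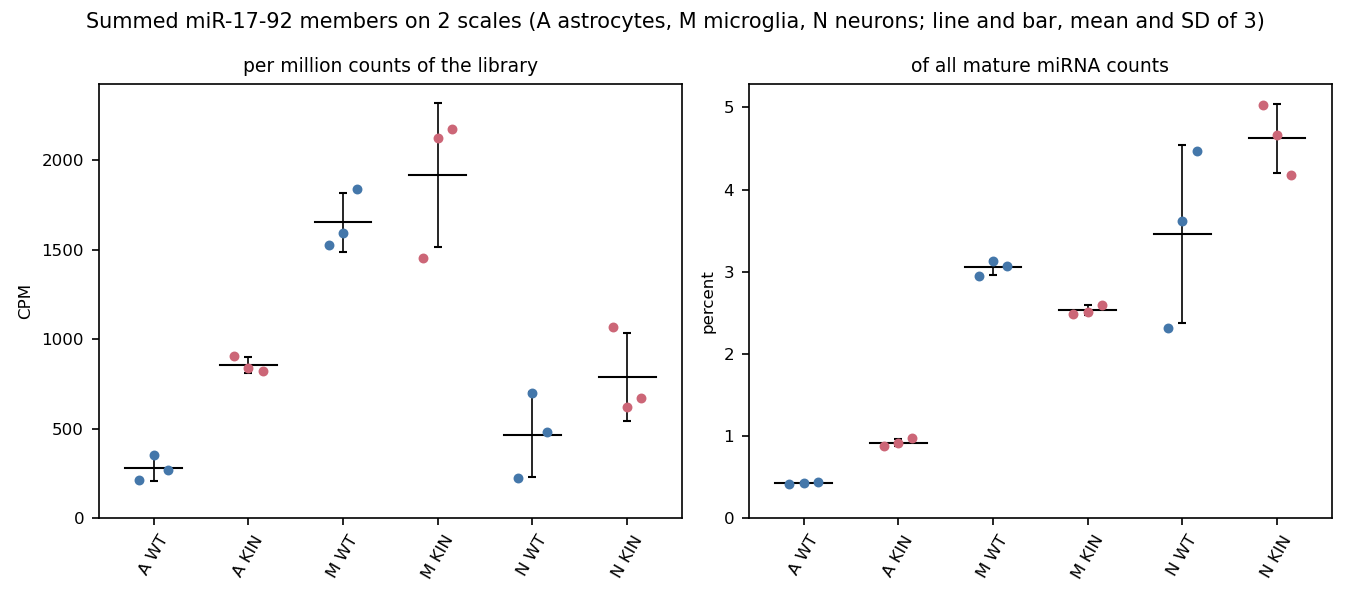
The summed members are plotted for each library in CPM on the left and as percent of mature miRNA counts on the right, with the line and bar giving mean and SD of 3. Neurons lie below microglia on the left and reach above them on the right, while KIN astrocytes lie above WT astrocytes on both.

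In astrocytes the question was whether the expanded repeat in Atxn2 went with another level of the cluster. Each of the 7 members was higher in all 3 KIN libraries than in any WT library. Fold changes in edgeR, with library sizes scaled by the trimmed mean of M values (TMM), ran from 2.42 for miR-92a-3p to 4.23 for miR-19a-3p. On the log2 scale the median of the 7 was 1.80, beside -0.19 over all 5694 features tested and 0.58 over the 418 mature miRNAs among them. A feature was called where its adjusted p did not exceed 0.05 and its log2 fold change was 1 or more in size, and all 7 were called higher, where 1.79% of all features tested and 11.2% of the mature miRNAs were called higher, and 8.18% of all features in either direction. Groups did not overlap, with KIN higher, in 10.8% of all features and 34.7% of the mature miRNAs. These counts come from the comparison known when the members were named, and nothing is read from them.

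The miR-19 strands, which share the GUGCAAA seed, had the first and the third highest fold change. miR-19a-3p stood at 7.95, 15.3 and 10.0 CPM in WT and in KIN at 50.0, 37.1 and 44.3 CPM, and its log2 fold change was 2.08 ± 0.30 (SE). miR-19b-3p stood at 79.5, 139 and 92 CPM against 373, 356 and 338 CPM, or 1.90 ± 0.21. The lowest KIN library was more than 2 times the highest WT library for both. Of the strands with the AAAGUGC seed, miR-17-5p had 24.5, 45.5 and 36.4 CPM in WT and 119.5, 97.8 and 105 CPM in KIN, and miR-20a-5p had 38.8, 77.6 and 53.4 CPM against 205, 175 and 166 CPM. Their log2 fold changes were 1.71 ± 0.24 and 1.80 ± 0.25. miR-18a-5p, whose seed differs from theirs by 1 base, went from 3.82, 4.27 and 4.25 CPM to 15.7, 13.4 and 14.0 CPM (1.92 ± 0.28), with the 3 WT values close together. miR-92a-3p changed least, with 56.6, 67.6 and 69.2 CPM in WT and 133, 147 and 148 CPM in KIN (1.28 ± 0.16). miR-17-3p rested on few reads, 7 to 19 counts in WT and 20 to 40 in KIN, and its log2 fold change of 1.57 ± 0.43 had the largest error. WT replicate 2 was the highest WT library for 6 of the 7, all but miR-92a-3p, and its share of mature miRNA, 8.30%, was also the highest of the WT libraries.

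As a share of mature miRNA counts the cluster took 0.424%, 0.426% and 0.439% in the WT astrocytes and 0.877%, 0.918% and 0.974% in the KIN astrocytes. With TMM factors taken from mature miRNAs alone the 7 log2 fold changes shrank to between 0.63 and 1.51, all still above 0, and miR-92a-3p (0.63) and miR-17-3p (0.97) were no longer called. That scaling moved the calls over all features from 102 higher and 364 lower to 16 higher and 1235 lower. The call of miR-17-3p was lost, at log2 fold changes of 1.31 to 1.84, without any single one of WT replicates 1 and 3 or KIN replicates 1, 2 and 3. It was also lost with plain library totals (1.45) and with all 18 libraries in one fit (1.59). The other 6 members kept their calls when each library was left out in turn.

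**Figure D3:**
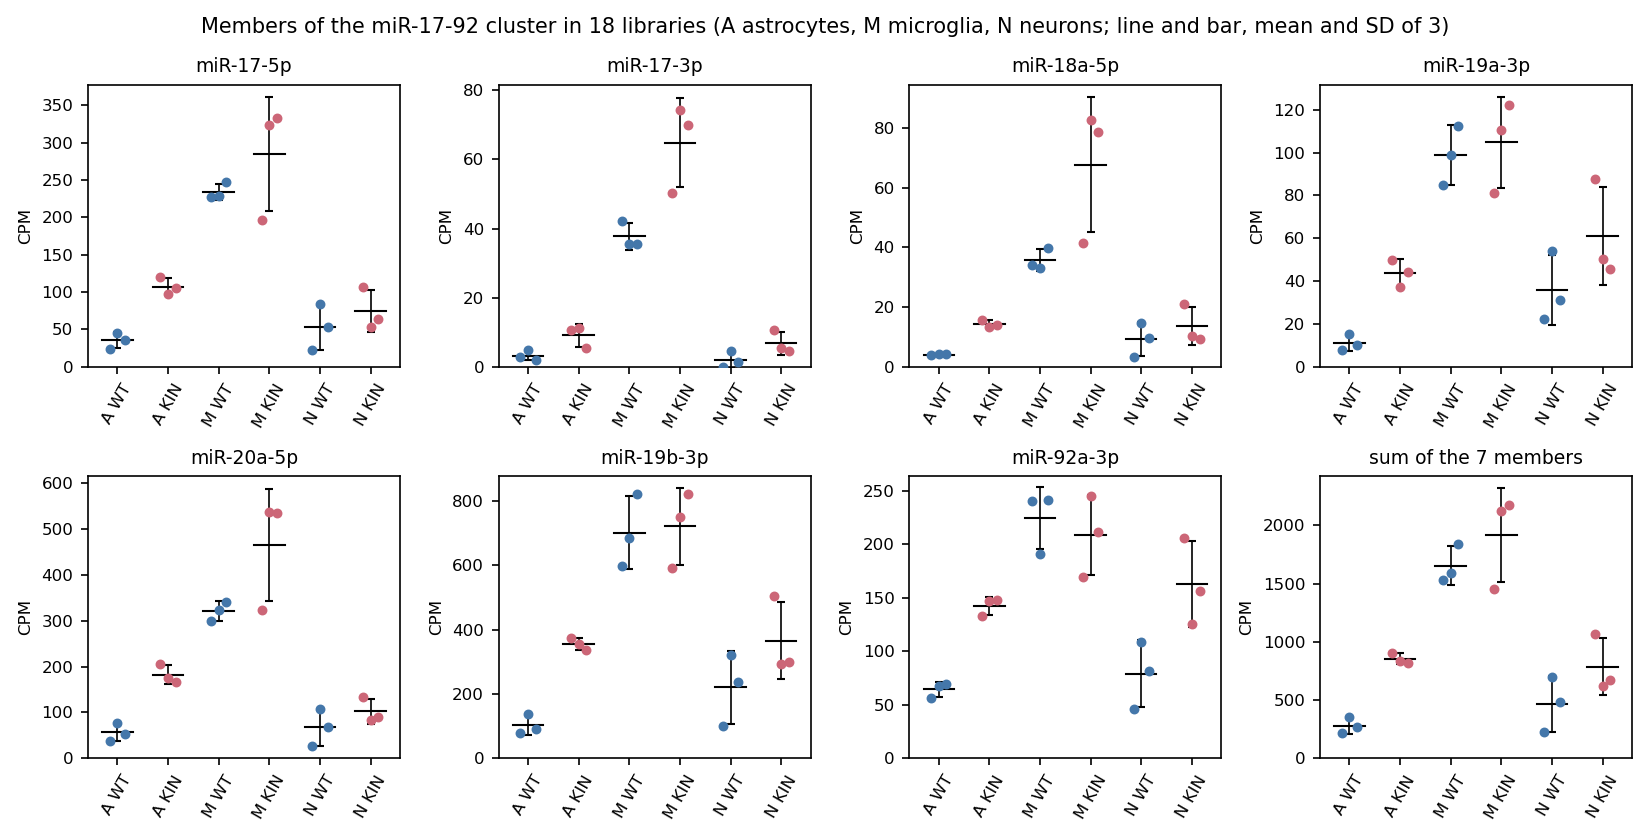
CPM of each member and of their sum is plotted for the 18 libraries on linear axes from 0, blue for WT and red for KIN, with a line and bar for mean and SD of 3. In astrocytes (A) red and blue points do not overlap in any panel, in microglia (M) they separate only for miR-17-3p and miR-18a-5p, and in neurons (N) only for miR-92a-3p.

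In microglia the members moved unequally. Their log2 fold changes of KIN over WT ran from 0.12 ± 0.19 (SE) for miR-92a-3p to 1.13 ± 0.27 for miR-18a-5p, with a median of 0.48 beside -0.11 over 4940 features and 0.46 over 382 mature miRNAs. miR-18a-5p was the 1 member called, at 34.0, 33.1 and 39.8 CPM in WT and 41.6, 82.5 and 78.7 CPM in KIN, while 1.42% of all features and 8.38% of mature miRNAs were called higher and 4.35% of all features in either direction. miR-17-3p lay just outside the limit on size, with 42.3, 35.4 and 35.4 CPM against 50.2, 74.4 and 70.1 CPM (0.99 ± 0.23). Those 2 were also the members whose groups did not overlap, as in 8.12% of all features and 21.7% of mature miRNAs. miR-20a-5p followed at 0.73 ± 0.22, with 299.5, 322 and 341 CPM in WT and 324, 536 and 534 CPM in KIN. For miR-19a-3p and miR-19b-3p, both called in astrocytes, the values were 0.29 ± 0.23 and 0.25 ± 0.20, and WT and KIN overlapped.

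KIN replicate 1 stood below the other KIN microglia for all 7 members and in its share of mature miRNA, 5.86% against 8.36% and 8.45%. Without it, log2 fold changes ran from 0.17 to 1.31, and miR-17-3p was called beside miR-18a-5p. miR-17-3p was also called without WT replicate 2. The call of miR-18a-5p was lost without WT replicate 1 or 3 or KIN replicate 2 or 3, at 0.96 to 1.12, and with the replicate number as a block, at 1.09. With TMM factors from mature miRNAs, no member was called and miR-19a-3p, miR-19b-3p and miR-92a-3p turned to -0.09, -0.13 and -0.27. On the share of mature miRNA counts the cluster was lower in KIN microglia, at 2.48%, 2.51% and 2.60%, than in WT microglia, at 2.95%, 3.14% and 3.07%, without overlap, so the direction for the summed cluster in microglia depends on the scale.

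The log2 effect of KIN in microglia minus that in astrocytes, from 1 edgeR fit to the 12 glial libraries, was negative for each of the 7 members. It was -1.79 ± 0.39 (SE) for miR-19a-3p, -1.64 ± 0.32 for miR-19b-3p, -1.22 ± 0.36 for miR-17-5p, -1.15 ± 0.27 for miR-92a-3p and -1.05 ± 0.37 for miR-20a-5p. The 2 members that moved most in microglia had the smallest differences, -0.78 ± 0.42 for miR-18a-5p and -0.57 ± 0.49 for miR-17-3p, both within 2 SE of 0. With library totals or TMM from mature miRNAs the 7 differences ran from -1.88 to -0.59.

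**Figure D4:**
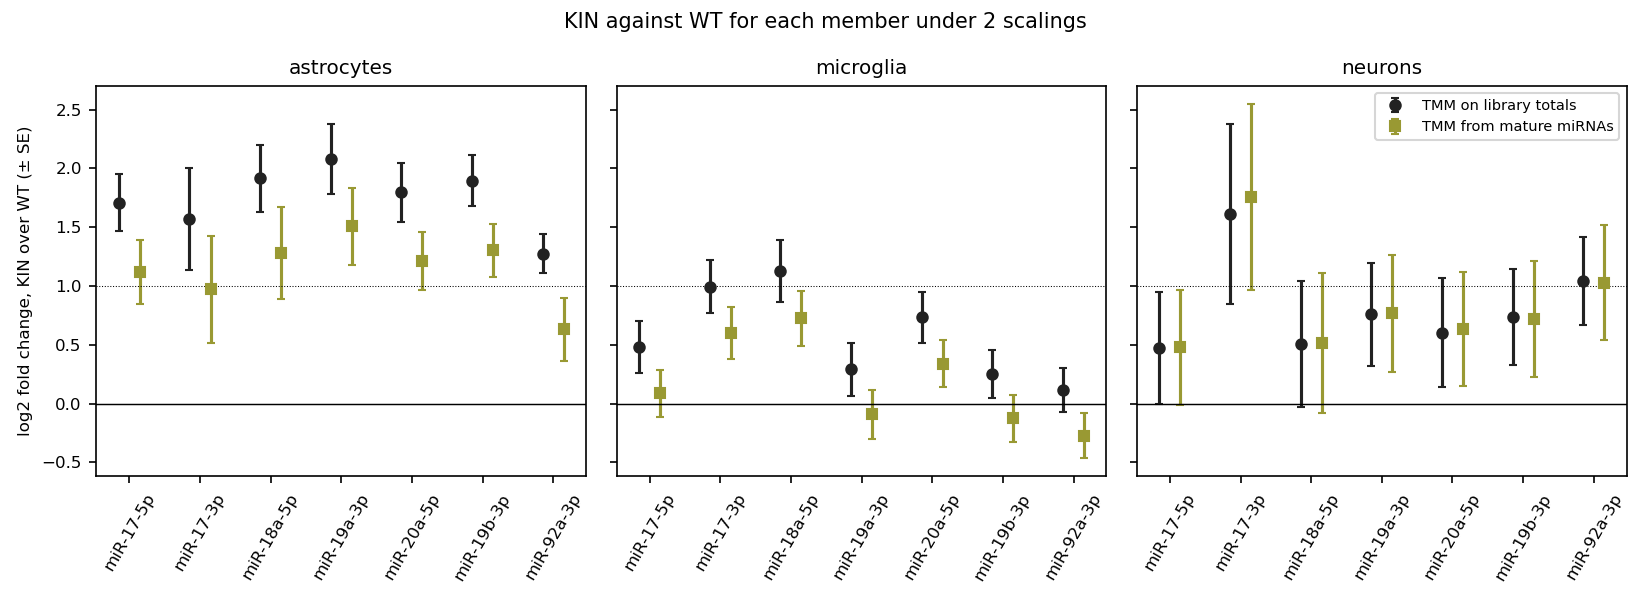
Points are log2 fold changes of KIN over WT and bars are SE, for each member in astrocytes, microglia and neurons, with factors from all features in black and from mature miRNAs in olive, with a dotted line at 1. In astrocytes every point lies above 0 under both, whereas in microglia 3 of the olive points lie below 0, and in neurons the bars are widest.

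In the neuronal fraction no member was called. The 7 log2 fold changes were all above 0, from 0.47 ± 0.47 (SE) for miR-17-5p to 1.61 ± 0.76 for miR-17-3p. Their median was 0.74, beside -0.11 over 4535 features and 0.01 over 217 mature miRNAs. The background was as empty, with 0% of features called by edgeR and none by DESeq2, and 197 features at an unadjusted p of at most 0.05 in edgeR. miR-92a-3p stood at 46.2, 109 and 81.8 CPM in WT and at 206, 126 and 157 CPM in KIN (1.04 ± 0.38), the only member whose groups did not overlap, as in 4.81% of all features. miR-19b-3p stood at 101, 323 and 238 CPM against 503, 292 and 301 CPM (0.74 ± 0.41). In both groups replicate 1 stood apart, low in WT and high in KIN. WT replicate 1 had 270 member counts and the smallest library of the 18, and its share of mature miRNA was 0.964%. Without WT replicate 1 the log2 fold changes ran from 0.12 to 1.15, without KIN replicate 1 from 0.09 to 1.18, and without WT replicate 2 from 0.89 to 3.09.

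The fractions were compared within each genotype, in separate mice for WT and KIN. The fractions of a genotype came in sequence from the same brains, so that their libraries are not independent. In WT mice every member was higher in microglia than in astrocytes, by 3.73-fold for miR-92a-3p to 12.2-fold for miR-17-3p. All 7 were called, where 12.2% of 6397 features and 22.5% of 418 mature miRNAs were called higher and 31.5% of features in either direction. Log2 fold changes were 3.60 ± 0.41 for miR-17-3p, 3.25 ± 0.35 for miR-19a-3p, 3.21 ± 0.34 for miR-18a-5p, 2.86 ± 0.29 for miR-19b-3p, 2.82 ± 0.30 for miR-17-5p, 2.60 ± 0.31 for miR-20a-5p and 1.90 ± 0.23 for miR-92a-3p. The lowest microglial value of each exceeded the highest astrocytic one. These calls held under every scaling, filter and tool tried, with log2 fold changes of 2.13 to 3.93 when TMM came from mature miRNAs. In the bulk fractions fewer cells of a type and less RNA per cell cannot be told apart.

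In KIN mice the same comparison gave 6 calls, beside 14% of 4570 features and 22.1% of 447 mature miRNAs called higher and 35.3% of features in either direction. miR-17-3p (2.96 ± 0.31) and miR-18a-5p (2.36 ± 0.27) differed most between microglia and astrocytes. miR-92a-3p differed by 0.67 ± 0.19, below the limit of 1, and with TMM from mature miRNAs by 1.02. The other 4 lay between 1.15 and 1.53. The median difference of the members was 2.86 in WT and 1.48 in KIN, and the KIN and WT values share no library.

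Against microglia the neuronal fraction was lower in CPM. In WT mice all 7 members were called lower, from -1.65 ± 0.43 for miR-19a-3p to -4.28 ± 0.73 for miR-17-3p, where 14.5% of 5166 features were called lower and 28% in either direction. Mature miRNAs as a class differed alike, with a median of -2.56 beside a median of -2.09 for the members. With TMM from mature miRNAs 1 call was left, miR-17-3p at -2.91, where 286 of 5166 features were called lower. The calls of miR-18a-5p and miR-19a-3p were lost without microglia WT replicate 3 or neurons WT replicate 3. In KIN mice 6 were called lower, with 26.2% of 4880 features called lower and 53% in either direction, and miR-92a-3p was at -0.83 ± 0.27. There the median was -3.09 over 360 mature miRNAs and -2.40 over the members. With TMM from mature miRNAs, miR-19a-3p, miR-19b-3p and miR-92a-3p were higher in KIN neurons than in KIN microglia, by 0.80, 0.60 and 1.23, the last of them called. Under that scaling 3284 of 4880 features were called higher, with a median of 2.10 over all features. In KIN mice miR-19a-3p lost its call without neurons KIN replicate 3 (-0.96).

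Between neurons and astrocytes the calls changed with the scale. In WT mice, with TMM over all features, no member was called, where 10.2% of 5916 features were called higher and 28.7% in either direction. The highest log2 fold change of the members was that of miR-19a-3p, 1.48 ± 0.49, with 22.3, 54.2 and 31.4 CPM in neurons above 7.95, 15.3 and 10.0 CPM in astrocytes. It was called with the replicate block (1.45), with DESeq2 (1.49) and with plain library totals (1.70). Without neurons WT replicate 1, miR-18a-5p, miR-19a-3p and miR-19b-3p were called, and without astrocytes WT replicate 2 miR-19a-3p. In KIN mice miR-20a-5p alone was called, lower in neurons (-1.09 ± 0.21), with 134, 82.8 and 90.3 CPM below 205, 175 and 166 CPM, where 24.1% of 5001 features were called lower and 46.3% in either direction. Without neurons KIN replicate 1 miR-17-5p was called as well. With TMM from mature miRNAs, 6 members in WT and all 7 in KIN were called higher in neurons, by 1.56 to 3.59 on the log2 scale. Under that scaling 2689 of 5916 features in WT and 3841 of 5001 in KIN were called higher. The medians over all features were 1.53 and 2.70, and nothing is read from these calls of the members. The mature miRNAs tested had medians of -2.66 in WT and -3.43 in KIN with TMM over all features, beside 0.40 and -0.34 for the members.

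Ratios between members need no scale. The share of each member in the summed counts was similar within a group and differed between fractions. miR-92a-3p, from the last hairpin, took 23.8% ± 4.09 (SD, n = 3) of the cluster in WT astrocytes, 16.8% ± 1.82 in KIN astrocytes, 13.6% ± 1.94 and 11.0% ± 1.07 in WT and KIN microglia, and 17.8% ± 2.67 and 21.0% ± 2.12 in WT and KIN neurons. WT and KIN overlapped in neurons and did not in either glial fraction. miR-20a-5p took 24.0% ± 1.57 in KIN microglia and 19.5% ± 0.852 in WT microglia, without overlap, and 13.1% ± 0.530 in KIN neurons. miR-19b-3p took the largest share in every library, from 34.4% to 49.2%. In microglia its near copy miR-19a-3p kept a ratio of 0.141 ± 0.00393 to it in WT and 0.145 ± 0.00607 in KIN, and the 2 ranges overlapped. miR-18a-5p did not keep its ratio to miR-19b-3p there, at 0.0567, 0.0484 and 0.0484 in WT and 0.0704, 0.110 and 0.0956 in KIN microglia. In astrocytes that ratio was 0.0416 ± 0.00949 in WT and 0.0403 ± 0.00240 in KIN.

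**Figure D5:**
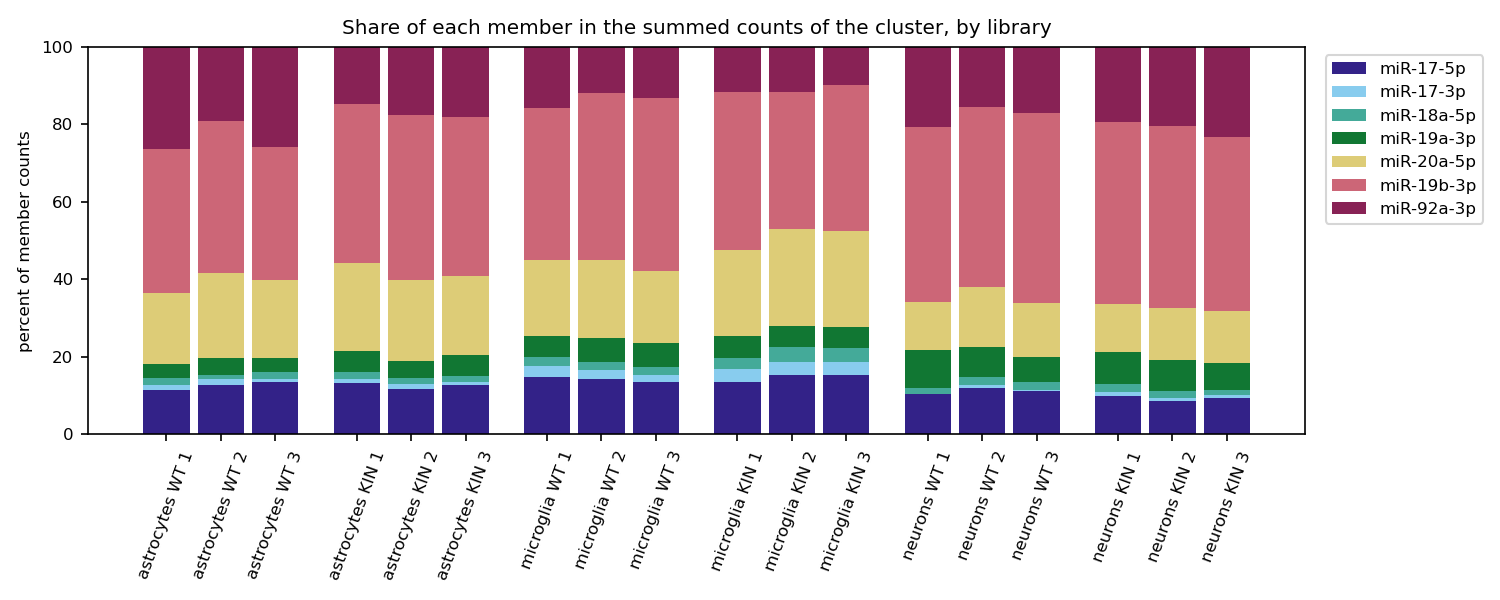
Each bar is 1 library and shows the percent of the summed member counts held by each of the 7 members. miR-19b-3p is the largest part of every bar, and the part of miR-92a-3p is largest in WT astrocytes and smallest in KIN microglia.

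The 2 strands of Mir17 also split differently in microglia, where the share of miR-17-3p exceeded that of every other library. Astrocytes and neurons overlapped in KIN, and the WT neuronal shares rest on 0, 9 and 2 counts of miR-17-3p. miR-17-3p made up 15.7%, 13.4% and 12.6% of both strands in WT microglia and 20.3%, 18.7% and 17.4% in KIN microglia, which did not overlap. In astrocytes it made up 10.5%, 9.50% and 5.51% in WT and 8.26%, 10.2% and 4.88% in KIN, which did. In neurons it made up 5.17% and 2.38% in WT replicates 2 and 3, and 9.06%, 9.09% and 6.67% in KIN. Neurons WT replicate 1 had 0 of 28 counts, which allows a share of up to 10.7% by 3 counts of the total and up to 12.3% by the exact 95% binomial interval. Such intervals were 13.4% to 18.2% for microglia WT replicate 1 and 17.6% to 23.3% for microglia KIN replicate 1, and they cover counting error only.

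The 5 other strands of the hairpins had fewer counts in total than any member. miR-20a-3p had 262 counts over the 18 libraries, miR-18a-3p 53, miR-19b-1-5p 41, miR-92a-1-5p 39 and miR-19a-5p 5. miR-20a-3p was the 1 of them with enough counts for a test in all 3 fractions. Its 8 counts in the 3 WT astrocyte libraries and 51 in the 3 KIN ones gave a log2 fold change of 2.73 ± 0.85, which was not called. In neurons its mean was 3.35 CPM in WT and 5.18 CPM in KIN, beside 1.97 and 6.85 CPM for the member miR-17-3p.

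Reads that failed the strict match to a mature sequence could fall on Ensembl rows of the same locus, and these rows moved with the members. The 6 hairpin transcripts summed to 19180 counts, and in each library they held 0.292 to 0.385 counts for each member count. Mir17hg-201 summed to 19499 counts, at 0.303 to 0.407 for each member count. Mir17hg-201 stood at 69.0, 113 and 82.9 CPM in WT astrocytes, and KIN astrocytes had 298, 271 and 261 CPM. The log2 fold change was 1.77 ± 0.20. It was 0.44 ± 0.20 in microglia and 0.70 ± 0.40 in neurons. All 6 hairpins were called higher in KIN astrocytes, from 1.36 ± 0.21 for Mir92-1 to 1.96 ± 0.30 for Mir19a. Of all features tested there, 1.79% were called higher. In a small RNA library these rows count short fragments and say nothing about the length of the molecule. All 6 hairpins lie in exon 2 of Mir17hg-201, so the same leftover reads can fit a hairpin row and the host row. Hairpin and host rows are therefore not separate readouts, and a change of the host transcript itself was not tested. Both can hold leftover reads of the members, so they are no independent check on the members either.

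Hairpin rows with an identical mature part share reads, and how tied placements were settled was not tested, so the shares below do not assign a locus. Of the counts on Mir19b-1 and Mir19b-2 together, Mir19b-1 took 43.5% to 55.9%, with a median of 49.6%. Of those on Mir92-1 and Mir92-2, Mir92-1 took 88.5% to 100%, with a median of 93.1%. The hairpins that are peculiar to the X cluster had few counts in all 18 libraries, 49 for Mir20b, 21 for Mir106a, 5 for Mir363 and 1 for Mir18b. Of the 7 mature strands listed for the X cluster, 4 had any count, and 64 counts of miR-20b-5p were the most. The sum of the members without miR-19b-3p and miR-92a-3p went from 77.9, 147 and 106 CPM in WT to 401, 334 and 335 CPM in KIN astrocytes.

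The Mir106b-25 cluster, which sits in an intron of the gene Mcm7 and shares 2 seeds with the members, was compared because its strands are abundant in the same libraries. Over the 18 libraries the members held 55.4% of the counts with the AAAGUGC seed and 34.2% of those with the AUUGCAC seed, where miR-92b-3p was the larger part with 13223 counts. They held 100% of the GUGCAAA seed and 99.9% of both AAGGUGC and CUGCAGU. In KIN astrocytes the 5 strands of Mir106b-25 had log2 fold changes of 0.37 to 1.03, with miR-106b-5p (1.03 ± 0.25) as the 1 called, against 1.28 to 2.08 for the members. The ratio of the summed members to the summed Mir106b-25 strands was 1.37, 1.40 and 1.39 in WT and 2.39, 2.63 and 2.46 in KIN astrocytes. In microglia the ratio was 3.72, 3.84 and 3.80 in WT and 3.43, 3.16 and 3.06 in KIN, lower without overlap. In neurons it was 3.70, 2.89 and 3.28 in WT and 3.59, 3.80 and 3.40 in KIN, which overlapped. The ratio is within a library, so it shows unequal change and not which cluster moved.

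Markers of other cell types were read beside these values. In astrocytes the 4 myeloid miRNAs, all with counts, summed to 21.3 to 34.9 CPM in WT and 44.1 to 75.0 CPM in KIN, and miR-142a-3p among them was called higher in KIN. That sum was 0.301% of the microglial level in WT and 0.356% in KIN, while the summed members in astrocytes were 16.8% and 44.6% of theirs. miR-142a-3p alone stood at 0.317% of its microglial level in WT astrocytes and at 0.696% in KIN astrocytes. miR-223-3p, the defining neutrophil and monocyte miRNA, lay at 2.54 to 3.34 CPM in WT astrocytes and at 3.49 to 4.94 CPM in KIN astrocytes. What part myeloid cells had in the astrocyte values was not tested. The neuronal fraction held 2.59% of the myeloid level in WT and 2.63% in KIN, and 28.3% and 41.1% of the level of the members. Erythroid miRNAs, 3 in the list, summed to 66.8 to 303 CPM in WT and 43.7 to 76.8 CPM in KIN neurons. In microglia the myeloid miRNAs summed to 8742 to 9880 CPM in WT and 12371 to 18987 CPM in KIN, without overlap, and 1 of the 4, miR-146a-5p, was called higher (1.16 ± 0.18). Of the 2 choroid plexus markers miR-211-5p was called higher there (3.03 ± 0.35), and of the 3 neuronal ones miR-124-3p was called lower (-1.28 ± 0.31). Erythroid miRNAs summed to 17.3 to 22.2 CPM in WT and 28.6 to 131 CPM in KIN microglia. In microglia the neural pair miR-9-5p and miR-9-3p summed to 82.3 to 245 CPM in WT and 59.1 to 68.6 CPM in KIN, and miR-92b-3p, at 531 to 658 CPM in astrocytes, stood at 50.4, 6.33 and 52.9 CPM in WT and 2.22, 2.55 and 3.96 CPM in KIN microglia. The part of these in the results was not tested. The oligodendrocyte pair summed to 830 to 1496 CPM in WT and 1510 to 2148 CPM in KIN astrocytes, without a call, and the part of these cells was not tested either.

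The genes that make, drive or are targeted by the cluster were thinly read. Of 29 listed genes, 7 regulators, 8 processing factors and 14 targets, enough counts for a test were found for 12 in astrocytes, for 14 in microglia and for 11 in the neuronal fraction, and none was called. In astrocytes 2 of the 12 had an unadjusted p of at most 0.05 in edgeR, in microglia and neurons 0. In the comparisons of the members that p was reached by 1955 of 5694 features in astrocytes, 1250 of 4940 in microglia and 197 of 4535 in neurons. The 2 genes were Dicer1, the enzyme that trims the hairpins, at 32 counts over the WT and 9 over the KIN libraries (-1.72 ± 0.53), and Hif1a, a listed target, with 40 and 17 counts (-1.12 ± 0.49). Beside that background nothing is read from these 2 genes. Atxn2 itself had 33, 24 and 22 counts in the 6 libraries of astrocytes, microglia and neurons, and counts on the gene do not show its repeat, so they check no label. A small RNA kit reads such messages only as short fragments.

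The members ran together across the libraries. Over the 18 libraries Pearson's r of log2(CPM + 1) between pairs of members ran from 0.79 to 0.99 with a median of 0.93 in 21 pairs, and after centring on each fraction from 0.80 to 0.99 with a median of 0.89. All members share the libraries and their miRNA content, so r is a description. Among 375 mature miRNAs with enough counts, the nearest to the summed members from outside the 3 clusters were miR-15b-5p (r = 0.93), miR-374b-5p (0.92), miR-142a-3p (0.88), miR-542-3p (0.87) and miR-466c-3p (0.84). miR-15b-5p stood at 45.1 ± 7.93 (SD, n = 3) CPM in WT astrocytes, 92.8 ± 23.4 in KIN astrocytes, 109 ± 23.4 in WT microglia and 119 ± 17.6 in KIN microglia. After centring on the fractions the nearest were miR-125b-5p (0.94), miR-181b-5p (0.94), miR-181a-5p (0.93), miR-15b-5p (0.93) and miR-99a-5p (0.92). Of these, miR-125b-5p stood at 6646 ± 575 CPM in WT and 11290 ± 1113 CPM in KIN astrocytes.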

How the data were processed

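The study sequenced small RNA of MACS fractions with a kit that adds molecular identifiers, whose collapsing is not stated for these libraries. The authors trimmed reads with cutadapt 4.6, keeping inserts of at least 20 bases, placed them with Bowtie2 2.4.4 in local mode in successive rounds (mature miRNAs, tRNAs, piRNAs, Ensembl noncoding and coding transcripts, mm39) and counted them with HTSeq 2.0.2 without strand, so a read taken as mature miRNA did not reach the hairpin rows. The deposited values used are counts, whole reads per feature, not normalized. The authors' deposited CPM columns and the deposited score, log2 and p-value columns of their comparisons, 36 columns by library among them, were not used. Groups came from the titles. Within each pair of groups, edgeR 4.0.16 quasi-likelihood tests (R 4.3.3) used features with at least 5 counts in 2 of 6 libraries, TMM on library totals and Benjamini-Hochberg adjustment over all features tested, and the script was tested on simulated data. SE is the log2 fold change over the root of F. A call needed an adjusted p not above 0.05 and a log2 fold change of 1 or more in size. DESeq2 1.42.0 and other scalings were alternatives. The members and all lists were chosen with earlier results of these data known. The named items are the members, the other strands and transcripts of the locus, its paralogs, the marker and pathway lists, and the 5 miRNAs most correlated with the sum. The titles number the 3 libraries of a group, and the study speaks of biological replicates for its RNA-seq data.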

Additional observations from a re-analysis of the deposited data

How the results depend on the processing

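All values here are log2 fold changes or counts of members called. In astrocytes KIN over WT stayed above 0 for all 7 members under every alternative. Of 7 calls, 6 were left with plain library totals and with all 18 libraries in one fit, both without miR-17-3p, and 5 with factors from mature miRNAs, without miR-92a-3p as well. In microglia 1 member was called, against 0 with plain library totals, with factors from mature miRNAs, with the replicate block and with all 18 libraries in one fit, 2 with DESeq2 and with its size factors, and 0 to 2 without single libraries. Factors from mature miRNAs turned miR-19a-3p to -0.091, miR-19b-3p to -0.13 and miR-92a-3p to -0.27, and library totals turned miR-92a-3p to -0.10. The summed cluster as a share of mature miRNA counts gave 1.10 in astrocytes in place of 1.62, and -0.27 in microglia in place of 0.21.

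For neurons over astrocytes in WT, 0 calls became 6 with factors from mature miRNAs, where miR-17-3p turned to 1.11, and 1 with library totals, DESeq2, its size factors, all 18 libraries or the replicate block, and 0 to 3 without single libraries. miR-20a-5p turned to -0.21 without the filter, -0.090 with the block and -0.081 with all 18 libraries, and miR-92a-3p to -0.16 without the filter and -0.041 with all 18 libraries. Without single libraries miR-17-5p ran from -0.086 to 0.83, miR-20a-5p from -0.46 to 0.53 and miR-92a-3p from -0.20 to 0.45. For neurons over astrocytes in KIN, 1 call became 0 with library totals, where miR-19b-3p turned to 0.038 and miR-92a-3p to 0.19, and 7 with factors from mature miRNAs, where miR-17-5p turned to 1.84, miR-17-3p to 1.96, miR-18a-5p to 2.27, miR-20a-5p to 1.56, miR-19b-3p to 2.41 and miR-92a-3p to 2.57. Without single libraries it was 1 to 2 calls, and miR-19a-3p ran from -0.077 to 0.38. For neurons over microglia, factors from mature miRNAs left 1 call in WT and 2 in KIN, where miR-19a-3p turned to 0.80, miR-19b-3p to 0.60 and miR-92a-3p to 1.23. With factors from mature miRNAs, 2689 of 5916 features in WT and 3841 of 5001 in KIN were called higher in neurons than in astrocytes. The cause was not tested.

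The replicate number was not taken to pair libraries. Deviations of same-numbered libraries correlated at -0.01, 0.01 and 0.10 in astrocytes, -0.17, -0.24 and 0.19 in microglia and -0.29, -0.04 and -0.09 in neurons, and all 3 exceeded 0.1 only for neurons over astrocytes in WT (0.14, 0.31 and 0.11). With the replicate block 7, 0 and 0 members were called in astrocytes, microglia and neurons. Over all features, calls in astrocytes were 466, against 1251 with factors from mature miRNAs, 159 with all 18 libraries and 41 to 1527 without single libraries. In microglia they were 215, against 364 with factors from mature miRNAs, 379 with DESeq2, 426 without the filter, 334 with all 18 libraries, 49 with the block and 0 to 940 without single libraries. In neurons 0 became 26 with factors from mature miRNAs, 75 without the filter and 0 to 52 without single libraries. Neuronal libraries held as few as 270 member counts, which limits what could be detected there.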
